A study of Mus musculus with 17 samples.

Results

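The leukocyte integrin genes described here are Itgam, Itgax, Itgal, Itgb2, Itga4 and Itgb7, 6 of the 55421 genes in the deposited count table, chosen by gene name. All 6 passed the filter on low counts that left 10481 genes, and Itgb7 passed it through 2 libraries only. Total RNA-Seq had been performed on lung fibroblasts from 17 mice, 1 library per mouse, to examine how loss of Ephb4 in Col1a2-expressing cells alters fibroblast transcripts in lung fibrosis. Reads per gene are given as CPM, counts divided by library size, with the sizes scaled by TMM to correct for differences in library composition, and log2 CPM carries a prior count of 2. The 6 genes were compared between genotypes and treatments, and then with the macrophage transcripts found in the same cultures.

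All mice carried floxed Ephb4 on both alleles and a Col1a2-CreERT2 transgene, so the controls carried the transgene too. At 4 weeks of age the Ephb4-CKO mice received 4-hydroxytamoxifen (1 mg per day for 5 days) and the Ephb4 control mice received corn oil. At 6 weeks of age they were given bleomycin (1.2 U/kg), a drug that injures the lung, or PBS, and the lungs were taken 14 days later. The groups were Ephb4 control PBS (n = 4), Ephb4 control bleomycin (n = 4), Ephb4-CKO PBS (n = 5) and Ephb4-CKO bleomycin (n = 4). Cre is driven by Col1a2, so macrophages are not the cells in which the transgene is meant to act. The cells were grown in serum and passaged once before RNA extraction.

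Integrins are cell surface receptors made of 1 alpha and 1 beta chain. The beta-2 chain, encoded by Itgb2 (CD18), pairs on leukocytes with the alpha chains of Itgal (CD11a, giving LFA-1), Itgam (CD11b, giving Mac-1) and Itgax (CD11c), and these receptors hold leukocytes to ICAM proteins, fibrinogen and complement-coated particles. The alpha-4 chain of Itga4 pairs with the beta-1 chain of Itgb1 to bind VCAM1 and fibronectin, or with the beta-7 chain of Itgb7 to bind MAdCAM-1. In the lung, CD11c is high on alveolar macrophages and dendritic cells, while CD11b marks monocytes, neutrophils and many tissue macrophages, and fibroblasts are not known for beta-2 integrins.

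Total counts ranged from 66540022 to 120554468 per library (median 93075927), so sampling error was small beside the spread between mice (biological coefficient of variation 0.557). Ephb4 ranged over 13.7 to 66.5 CPM in the control bleomycin libraries and 5.13 to 14.2 CPM in the CKO bleomycin libraries (log2 fold change -1.998, edgeR adjusted p = 0.220), groups that overlapped slightly. The PBS groups overlapped too, at 2.45 to 32.5 CPM in control and 4.02 to 22.0 CPM in CKO. Transcripts of Y-linked genes and of Xist went against the labelled sex in 3 libraries: control bleomycin replicate 2 and CKO bleomycin replicates 1 and 2. The group labels of these libraries, all in the comparison of genotypes after bleomycin, are therefore in doubt, and they are used here as labelled. Control bleomycin replicate 1 stood apart, with a macrophage score of 4.07 against 6.92 to 9.86 in the other libraries. That score is the mean log2 CPM of the 20 macrophage genes kept out of 21 listed, such as Lyz2, Cd68, Csf1r and Ptprc, with no integrin among them. The label of primary fibroblasts was met unevenly, since the 14 fibroblast genes summed to 6267 to 12710 CPM in the control bleomycin libraries but to 15.3 to 7369 CPM in control PBS, 34.0 to 1929 CPM in CKO PBS and 17.6 to 1655 CPM in CKO bleomycin libraries. The 21 macrophage genes summed to 1500 to 23220 CPM in control bleomycin libraries and to 10510 to 49310 CPM in the other 13 libraries. In bulk RNA, fewer cells of a type and less RNA per cell cannot be told apart.

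Itgam (ENSMUSG00000030786, GRCm38 chr7:128062640-128118491, plus strand) encodes CD11b, the alpha chain of Mac-1. It measured 140.2, 178, 248 and 256 CPM in the control PBS libraries and 65.2, 203, 149 and 115 CPM in the control bleomycin libraries. It measured 1049.6, 81.1, 392, 402 and 707 CPM in CKO PBS and 183, 220.1, 393 and 230.3 CPM in CKO bleomycin. The CKO PBS mice were the most uneven, holding both the highest library of the study and the second lowest. Means ± SD were 205 ± 55.8 (n = 4), 133 ± 57.9 (n = 4), 526 ± 367 (n = 5) and 256 ± 93.2 (n = 4), in the order control PBS, control bleomycin, CKO PBS and CKO bleomycin. Gm49368, a gene model on the same strand, shares 3450 of its 4803 exon bases with Itgam, and its CPM was 1.14% to 9.56% of that of Itgam (median 2.21%), so the division of reads between them is uncertain.

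Itgax (ENSMUSG00000030789, chr7:128129547-128150657, plus strand) encodes CD11c and was the most abundant alpha chain of the family per kilobase of exon. It measured 682, 599, 252 and 2131 CPM in control PBS and 13.8, 405, 426 and 271 CPM in control bleomycin. It measured 1269, 743, 607, 1669 and 472 CPM in CKO PBS and 859, 935, 461 and 1973 CPM in CKO bleomycin. All 4 CKO bleomycin libraries lay above all 4 control bleomycin libraries, although 461 and 426 CPM were close at the border. The group means were 916 ± 831, 279 ± 189.8, 952 ± 502 and 1057 ± 645 CPM (SD, n = 4, 4, 5 and 4).

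Itgam and Itgax lie side by side, and the 300 bases around their starts (250 before, 50 after; RefSeq, GRCm38.p6) are shown because myeloid expression of both genes is known to depend on PU.1, whose core site is GAGGAA. Both strands were searched, and capitals mark a match, which reads TTCCTC where it lies on the other strand. The windows are chr7:128062390-128062689 for Itgam and chr7:128129300-128129599 for Itgax, both plus strand.
Itgam: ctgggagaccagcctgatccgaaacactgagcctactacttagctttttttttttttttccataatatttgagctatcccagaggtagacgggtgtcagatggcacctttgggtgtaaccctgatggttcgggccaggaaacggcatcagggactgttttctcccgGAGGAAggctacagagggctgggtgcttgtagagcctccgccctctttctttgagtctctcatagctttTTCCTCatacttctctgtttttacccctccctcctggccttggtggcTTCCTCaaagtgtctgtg
Itgax: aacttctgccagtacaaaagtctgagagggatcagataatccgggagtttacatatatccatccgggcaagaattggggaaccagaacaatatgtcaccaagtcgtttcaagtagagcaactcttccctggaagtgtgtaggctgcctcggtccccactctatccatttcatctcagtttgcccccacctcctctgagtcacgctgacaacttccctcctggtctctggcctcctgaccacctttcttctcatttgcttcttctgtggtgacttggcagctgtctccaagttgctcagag
The Itgam window held 3 matches and the Itgax window 0, and 28.3% of 32851 promoter windows of this length held at least 1.  These counts describe letters only, and no binding was measured.

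Itgal (ENSMUSG00000030830, chr7:127296260-127335138, plus strand), the alpha chain of LFA-1, was expressed at lower levels. It measured 35.1, 35.8, 13.5 and 65.8 CPM in control PBS, 2.14, 15.3, 22.9 and 14.4 CPM in control bleomycin, 116, 44.8, 38.1, 52.9 and 24.6 CPM in CKO PBS, and 43.8, 23.0, 31.1 and 53.3 CPM in CKO bleomycin. The CKO and control bleomycin libraries were separated only by the gap from 22.9 to 23.0 CPM. The group means were 37.5 ± 21.5, 13.7 ± 8.61, 55.3 ± 35.6 and 37.8 ± 13.4 CPM (SD, n = 4, 4, 5 and 4).

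Itgb2 (ENSMUSG00000000290, chr10:77530252-77565708, plus strand), the beta chain that every one of these alpha chains needs to reach the cell surface, was the most abundant member. It measured 813, 583, 414 and 2341 CPM in control PBS and 75.0, 746, 901 and 702 CPM in control bleomycin. It measured 1259, 939, 1242.6, 1744 and 1498 CPM in CKO PBS and 1524, 1228, 955 and 2013 CPM in CKO bleomycin. Both CKO groups lay wholly above the control bleomycin group, whereas the control PBS group, from 414 to 2341 CPM, reached both below and above all CKO libraries. The means were 1037 ± 884, 606 ± 364, 1336 ± 302 and 1429.8 ± 453 CPM (SD, n = 4, 4, 5 and 4).

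Itga4 (ENSMUSG00000027009, chr2:79255426-79333123, plus strand), the alpha-4 chain, measured 52.4, 80.2, 36.7 and 64.0 CPM in control PBS and 2.87, 27.6, 40.6 and 31.0 CPM in control bleomycin. It measured 26.3, 48.9, 60.2, 97.4 and 98.4 CPM in CKO PBS and 74.3, 43.5, 64.4 and 73.6 CPM in CKO bleomycin. The control bleomycin libraries lay below all CKO bleomycin libraries but overlapped both PBS groups. The means were 58.3 ± 18.4, 25.5 ± 16.1, 66.2 ± 31.4 and 64.0 ± 14.4 CPM (SD, n = 4, 4, 5 and 4).

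Itgb7 (ENSMUSG00000001281, chr15:102215995-102231944, minus strand), the beta-7 chain best known from gut-homing lymphocytes, was scarce in most cultures. It measured 0.770, 4.60, 3.25 and 6.01 CPM in control PBS and 0.643, 2.68, 1.06 and 1.44 CPM in control bleomycin. It measured 4.79, 0.505, 4.79, 2.89 and 94.4 CPM in CKO PBS and 23.9, 1.62, 6.00 and 7.94 CPM in CKO bleomycin. Its group means therefore rest on CKO PBS replicate 5 (7532 counts) and CKO bleomycin replicate 1 (2571 counts), the libraries through which it passed the filter. The window of Itga4, not shown, held 0 matches to GAGGAA. The window around the start of Itgb7 (GRCm38.p6, chr15:102231886-102232185, minus strand), shown in the same way for comparison with the alpha chains, held 1 match to GAGGAA.
Itgb7: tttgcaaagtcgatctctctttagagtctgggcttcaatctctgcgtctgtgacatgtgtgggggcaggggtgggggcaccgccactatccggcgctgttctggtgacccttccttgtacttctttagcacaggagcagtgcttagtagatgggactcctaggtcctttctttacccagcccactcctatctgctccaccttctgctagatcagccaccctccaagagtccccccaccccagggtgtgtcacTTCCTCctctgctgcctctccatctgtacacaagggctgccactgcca

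**Figure D1:**
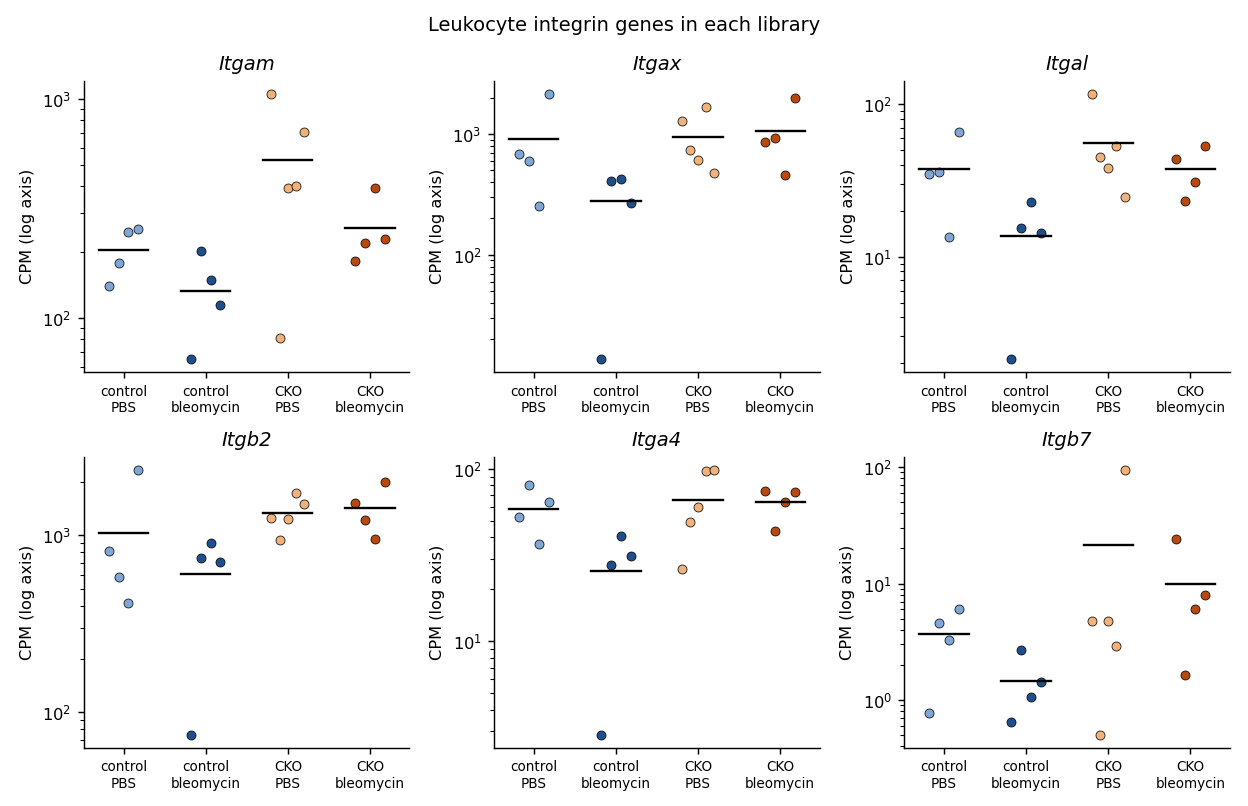
Each point is the CPM of 1 library on a log axis, by group, and the bar is the group mean of the CPM values; points within a group are in order of replicate number. Control bleomycin replicate 1 is the lowest of the 17 libraries for 5 of the 6 genes, and CKO PBS replicate 5 stands out for Itgb7 at 94.4 CPM.

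In the order of mean levels, control bleomycin was last for all 6 genes. The first place went to CKO PBS for Itgam, Itgal, Itga4 and Itgb7 and to CKO bleomycin for Itgax and Itgb2. No 2 neighbouring groups in any of these orders were separated, since their libraries overlapped in every case. Control bleomycin replicate 1 was the lowest library for 5 genes and the second lowest for Itgb7. Without it the control bleomycin means were 155.6 ± 44.3 CPM for Itgam, 367 ± 84.3 CPM for Itgax, 17.5 ± 4.70 CPM for Itgal, 783 ± 104.5 CPM for Itgb2, 33.1 ± 6.75 CPM for Itga4 and 1.72 ± 0.845 CPM for Itgb7 (SD, n = 3).

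Levels were compared between genes per kilobase of union exon. Mean Itgb2 was 340 ± 290 CPM per kb in control PBS, 199 ± 119 in control bleomycin, 438 ± 99.0 in CKO PBS and 469 ± 148 in CKO bleomycin. Itgax followed at 191, 58.1, 198 and 220.1 CPM per kb in the same order, Itgam at 40.9, 26.5, 105 and 51.0, and Itgal at 5.71, 2.08, 8.43 and 5.75. The sum of the beta-2 alpha chains also took in Itgad (CD11d), whose CPM was a nearly constant share of that of Itgax. The summed beta-2 alpha chains came to 0.751 ± 0.101 of Itgb2 in control PBS, 0.493 ± 0.133 in control bleomycin, 0.719 ± 0.293 in CKO PBS and 0.591 ± 0.109 in CKO bleomycin. The alpha chains together exceeded the beta chain in 1 CKO PBS library, at a ratio of 1.21. With the longest transcript as the length that ratio was 1.34. The highest control PBS library then came to 1.001, an excess that rested on counting Itgad. The ratio of Itgax to Itgam ran from 0.222 to 9.58 over all libraries, so the leading alpha chain was not the same in every culture. Itga4 was 0.000781 to 0.0722 of Itgb1, the partner that fibroblasts and most other cells also make, and 0.207 to 19.2 of Itgb7.

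The first question was whether deletion of Ephb4 changed the integrin genes after bleomycin. All 6 genes had higher fitted levels in CKO than in control libraries, and their median log2 fold change was 1.42 against 0.01 over all genes tested, of which 50.7% had a value above 0. None passed an adjusted p of 0.05 in edgeR's quasi-likelihood test, in which 0.0% of 10481 genes were called, and 2119 (20.2%) had an unadjusted p under 0.05. The log2 fold change ± SE was 1.94 ± 0.81 for Itgax (edgeR adjusted p = 0.225), 1.49 ± 0.61 for Itgal (adjusted p = 0.223), 1.35 ± 0.57 for Itga4 (adjusted p = 0.226) and 1.26 ± 0.59 for Itgb2 (adjusted p = 0.248). In these 4 genes the groups did not overlap, while 8.42% of all genes had every CKO library above every control library. For Itgb7 the value was 2.78 ± 1.27 (adjusted p = 0.241) and for Itgam 0.99 ± 0.54 (adjusted p = 0.288), both with overlap. In all, 4 of the 6 had an unadjusted p under 0.05 (Itgax, Itgal, Itga4 and Itgb7), read against the 20.2% of all genes. Itgb7 passed the filter only through CKO libraries, CKO PBS replicate 5 and CKO bleomycin replicate 1. Its higher value in CKO was thus favoured by the filter and is no support for a difference.

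The 4 unadjusted calls depended on single mice. There were 0 without CKO bleomycin replicate 4, 1 of the 5 genes still fitted without CKO bleomycin replicate 1, 2 without control bleomycin replicate 4, and 2 without control bleomycin replicate 1, whose removal lowered the median log2 fold change to 1.02. Leaving out any other single library gave 3 to 5 calls. With the 3 sex-mismatched libraries left out, the 5 genes that could be fitted kept higher values in CKO, from 1.38 for Itgb2 to 2.32 for Itgax, and 0 had an unadjusted p under 0.05. All 4 control bleomycin mice had numbers of series 12 (the first digits of the mouse number in the labels), whereas the CKO bleomycin mice were divided between series 11 (n = 2) and 12 (n = 2). Without the 3 sex-mismatched libraries, only CKO bleomycin libraries of series 11 were left. Genotype and series cannot be told apart in that fit. Within series 12 alone, the values were 0.64 for Itgam, 1.72 for Itgax, 1.32 for Itgal, 1.22 for Itgb2 and 1.24 for Itga4, with 0 unadjusted calls. Both CKO bleomycin libraries in that series 12 fit, replicates 1 and 2, are sex-mismatched, as is control bleomycin replicate 2. The series 12 values therefore rest on CKO libraries whose group labels are in doubt. Whether the series marks a batch is not given in the sources used here.

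The macrophage score was 8.53 ± 0.29 in CKO bleomycin and 6.93 ± 1.92 in control bleomycin libraries (SD, n = 4 each), and all 20 macrophage genes had higher values in CKO (median log2 fold change 1.17, 6 with an unadjusted p under 0.05, 0 adjusted). Over all genes, 20.2% had an unadjusted p under 0.05. The 13 fibroblast genes all had lower values in CKO (median -3.70, 11 without overlap), where 13.8% of all genes were lower without overlap. With the macrophage score as a covariate the integrin values shrank to 0.98 ± 0.66 for Itgax, 0.79 ± 0.57 for Itgal, 0.61 ± 0.40 for Itga4, 0.42 ± 0.39 for Itgb2, 0.61 ± 0.57 for Itgam and 1.03 ± 1.40 for Itgb7, and 0 of 6 had an unadjusted p under 0.05. With the fibroblast score as the covariate instead, the values were 0.70 ± 0.84 for Itgax, 0.49 ± 0.67 for Itgal, 0.90 ± 0.70 for Itga4, 0.54 ± 0.69 for Itgb2, 1.17 ± 0.71 for Itgam and 2.73 ± 1.67 for Itgb7, and again 0 of 6 had an unadjusted p under 0.05. Neither score overlapped between these groups. The macrophage score ran from 4.07 to 8.18 in control and from 8.285 to 8.88 in CKO bleomycin libraries. The fibroblast score ran from 7.43 to 8.02 in control and from -0.522 to 5.97 in CKO bleomycin libraries. Either covariate therefore takes up part of the group difference, and the lost calls cannot be assigned to either score. With the number series as a covariate there was 1 call.

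**Figure D2:**
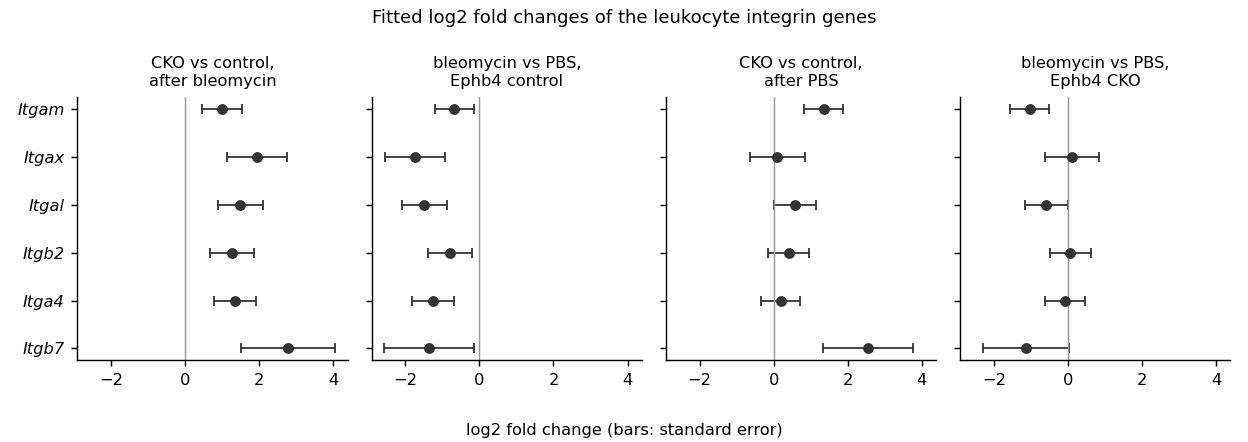
Fitted log2 fold changes (points) with standard errors (bars) from edgeR for the 6 genes in 4 comparisons; the vertical line marks 0. All 6 lie above 0 for CKO against control after bleomycin and below 0 for bleomycin against PBS in control mice, with no adjusted p under 0.05 in any comparison.

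The second question was how bleomycin altered the genes in Ephb4 control mice. All 6 had lower fitted levels after bleomycin (median -1.304, against -0.06 over all genes, of which 44.5% had a value above 0), and none passed the adjusted threshold, which 0.0% of genes passed, while 1494 (14.3%) had an unadjusted p under 0.05. The log2 fold changes were -1.73 ± 0.80 for Itgax, -1.49 ± 0.61 for Itgal and -1.24 ± 0.57 for Itga4, with edgeR adjusted p from 0.323 to 0.349. These 3 of 6 had a lower level with an unadjusted p under 0.05, as did 7.98% of all genes. Itgb2 (-0.79 ± 0.59), Itgam (-0.68 ± 0.54) and Itgb7 (-1.36 ± 1.21) had adjusted p from 0.523 to 0.595, and the groups overlapped for all 6 genes, where 2.06% of all genes were lower without overlap. Without control PBS replicate 4, which held the highest Itgax and Itgb2 of the study, 0 of 6 had an unadjusted p under 0.05 and Itgb2 stood at -0.08. Without control bleomycin replicate 1 there was 1, Itga4 at -0.83, and there was also 1 without control bleomycin replicate 2 or 4, control PBS replicate 1, CKO PBS replicate 2 or 3, or CKO bleomycin replicate 1, with all members lower in each case. With the 3 sex-mismatched libraries left out there were 0 of the 5 genes fitted (median -1.26), as in a fit to the 2 groups compared alone. With the fibroblast score as a covariate there were 0 of 6, and Itgax stood at -0.096 ± 0.95 and Itgal at -0.23 ± 0.74, while the macrophage score, the number series or sex as a covariate each left 1. The control PBS mice were of number series 11 (n = 3) and 12 (n = 1), against series 12 alone (n = 4) after bleomycin, so 0 control bleomycin libraries allow a comparison within series 11. Both this comparison and the CKO comparison after bleomycin use the same 4 control bleomycin libraries.

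After PBS, no member passed the adjusted threshold between CKO and control libraries (0.0% of genes called). The log2 fold change was 0.09 ± 0.74 for Itgax, 0.19 ± 0.53 for Itga4, 0.40 ± 0.56 for Itgb2 and 0.58 ± 0.57 for Itgal. Itgam was 1.35 ± 0.52 higher in the CKO fit (edgeR adjusted p = 0.9998) and its groups overlapped; it was the 1 gene of 6 with a higher level at an unadjusted p under 0.05, as were 1.43% of all genes, and 1.99% of genes passed in either direction. It stood at 0.95 without CKO PBS replicate 1, and the count was 0 without control PBS replicate 1 and 2 without CKO PBS replicate 2, 3 or 4. Itgb7 stood at 2.55 ± 1.23, and without CKO PBS replicate 5 it no longer passed the filter. Between bleomycin and PBS in CKO mice, Itgam was at -1.03 ± 0.52, Itgb7 at -1.13 ± 1.16 and the other 4 between -0.58 and 0.11, with every edgeR adjusted p at 1. None of the 6 had an unadjusted p under 0.05, as 0.964% of all genes did. The interaction of genotype and bleomycin, which tests whether the bleomycin difference itself differed between genotypes, reached 1.84 ± 1.08 for Itgax and 1.16 ± 0.77 for Itga4, with edgeR adjusted p of 0.916 for both. None of the 6 interactions had an unadjusted p under 0.05, as 3.46% of all genes did, so a difference in response between genotypes was not shown for any member.

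The integrin genes were then set beside the macrophage content of each culture. Across the 17 libraries, log2 CPM of Itgb2 had a Pearson r of 0.908 with the macrophage score (Spearman rho 0.789; permutation p adjusted over the 6 genes = 0.00012 for r). The values were 0.886 and 0.706 for Itga4, 0.820 and 0.613 for Itgax, 0.746 and 0.502 for Itgal, 0.696 and 0.816 for Itgb7, and 0.621 and 0.578 for Itgam (adjusted permutation p for r from 0.00123 to 0.00837, and for rho from 0.00078 to 0.0414). Leaving out the 2 libraries farthest from the median score, control bleomycin replicate 1 and CKO PBS replicate 5, r became 0.789 for Itgb2 (permutation p = 0.00047), 0.688 for Itgax (p = 0.00417 by permutation), 0.688 for Itgb7 (p = 0.00429 by permutation) and 0.533 for Itgal (p = 0.0403 by permutation). It became 0.478 for Itga4 (p = 0.0693 by permutation) and 0.322 for Itgam (p = 0.240 by permutation), so with this score the relation of these 2 genes rested on those libraries. With Ptprc in place of the score and the same 2 libraries left out, r was 0.693 for Itga4 (p = 0.00395 by permutation), 0.309 for Itgam (p = 0.260 by permutation) and 0.328 for Itgb7 (p = 0.232 by permutation), so the dependence of Itga4 and Itgb7 on those libraries changed with the measure used. Within number series 11 (n = 8) r ran from 0.360 for Itgax to 0.828 for Itgb7, and in series 12 (n = 9), which includes control bleomycin replicate 1, from 0.555 for Itgam to 0.977 for Itgb2. All points share the scaling of their library with the score. The share of all 10481 genes that follow the score this closely is not given here. The correlations are therefore not read as particular to the integrin genes.

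**Figure D3:**
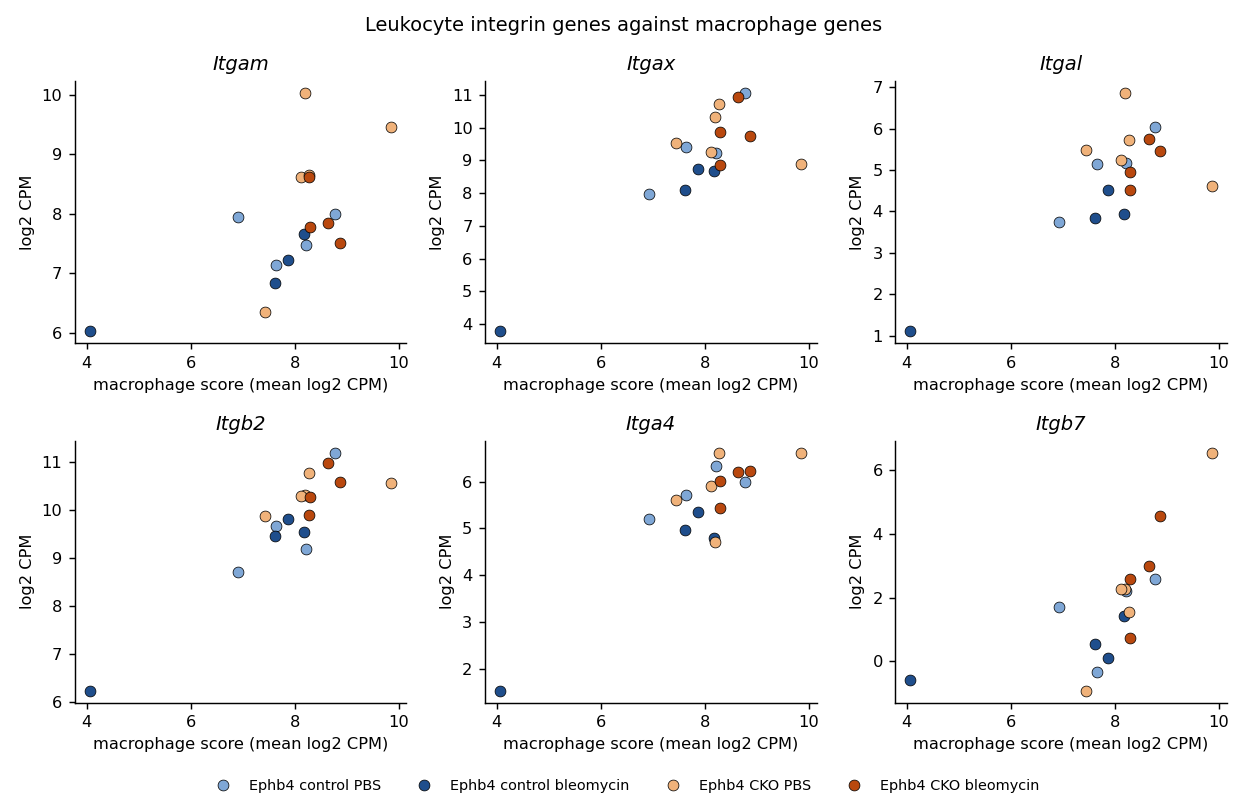
Each point is 1 library, with the macrophage score (mean log2 CPM of 20 genes) on the horizontal axis and log2 CPM of the integrin gene on the vertical axis, coloured by group. Control bleomycin replicate 1 lies far to the left at 4.07, and Itgb2 follows the score most closely (r = 0.908).

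A level relative to macrophage transcripts was taken as log2 CPM minus the score. For Itgb2 it was 1.80 ± 0.61 in control PBS, 1.83 ± 0.33 in control bleomycin, 1.98 ± 0.74 in CKO PBS and 1.90 ± 0.32 in CKO bleomycin (SD), and the difference between genotypes after bleomycin was 0.07 (exact permutation p = 0.771). For Itgax the control PBS libraries read 1.77, 1.01, 1.06 and 2.28 and the control bleomycin libraries -0.28, 0.49, 0.87 and 0.46. These groups did not overlap (1.53 ± 0.61 against 0.38 ± 0.48, difference -1.15, exact permutation p = 0.0286, the smallest that 4 against 4 allows), but the p adjusted over 24 tests was 0.686 by the exact permutation test, and 0.219% of all genes were lower with an exact permutation p under 0.05. The CKO bleomycin libraries read 0.87, 1.57, 0.56 and 2.30 for Itgax, a mean of 1.33 ± 0.77 that was 0.94 above control bleomycin (exact permutation p = 0.0571). In that comparison 0.162% of all genes were higher relative to the score with an exact permutation p under 0.05 and 39.8% were lower. The difference in control mice stood at -0.93 without control bleomycin replicate 1 and at -0.60 when Ptprc, the gene of the pan-leukocyte antigen CD45, took the place of the score.

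Itgal and Itga4 were 0.71 and 0.70 lower relative to the score after bleomycin in control mice (exact permutation p = 0.0857 and 0.114), or -0.167 and -0.154 with Ptprc in place of the score, and 0.22 higher in CKO than in control mice after bleomycin for each gene (exact permutation p = 0.486 and 0.457). Itgam read -0.25 ± 0.86 in control PBS, 0.00 ± 1.31 in control bleomycin, 0.24 ± 1.10 in CKO PBS and -0.59 ± 0.71 in CKO bleomycin libraries, and Itgb7 was similarly spread, at -6.35 ± 1.17, -6.56 ± 1.34, -6.04 ± 1.83 and -5.81 ± 1.35. None of the 24 tests, on 6 genes in 4 comparisons, had an adjusted p under 0.686 by the exact permutation test.

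**Figure D4:**
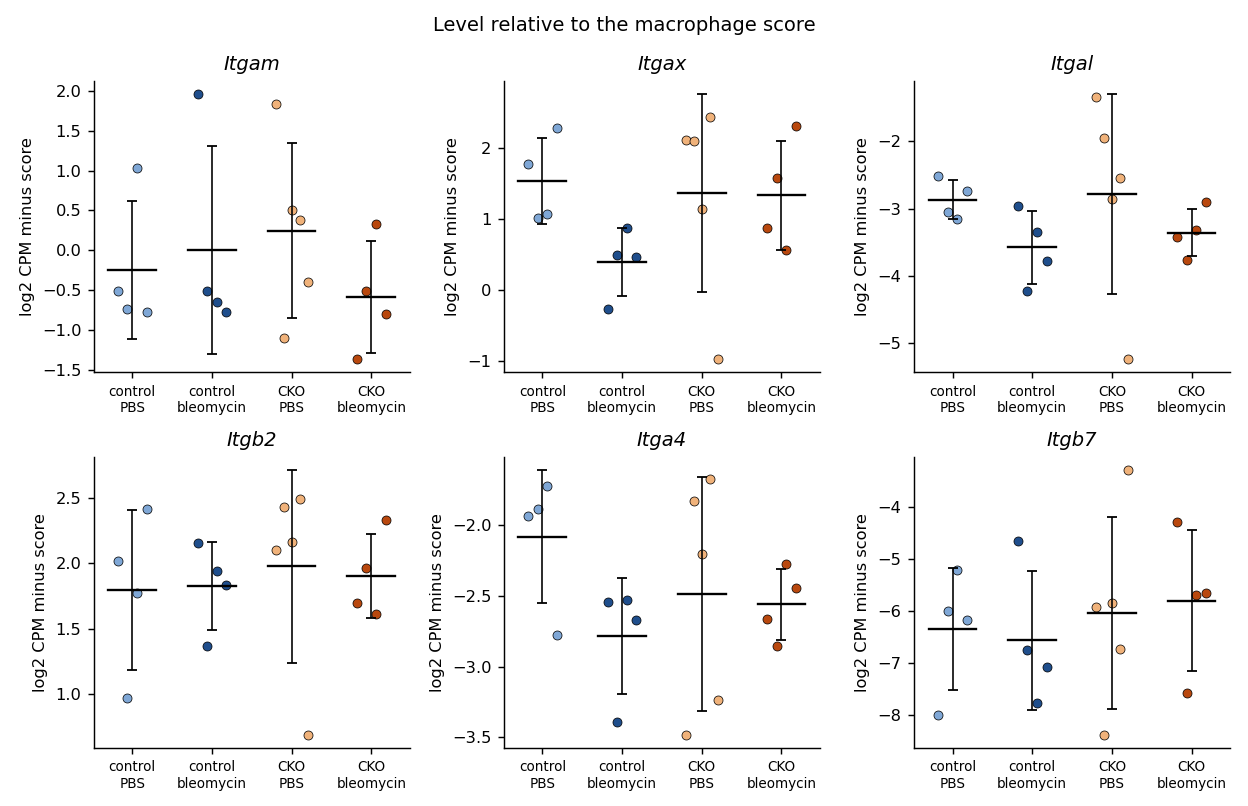
Log2 CPM of each gene minus the macrophage score of the same library; points are libraries, horizontal bars are group means and vertical bars are SD. For Itgax every control PBS library lies above every control bleomycin library, while Itgb2 keeps group means between 1.80 and 1.98.

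Markers of other CD11c- or CD11b-bearing cells moved in part with these values, and their part in the results was not tested. The alveolar macrophage score, from 10 genes such as Siglecf, Car4 and Chil3, was 6.28 ± 1.13 in control PBS, 3.49 ± 1.21 in control bleomycin, 5.00 ± 1.89 in CKO PBS and 4.57 ± 2.83 in CKO bleomycin. All 10 of its genes had lower values after bleomycin in control mice (median -2.58, 4 without overlap), beside the lower Itgax. Over all genes, 2.06% were lower there without overlap. In single libraries this score and Itgax did not always go together. Control bleomycin replicate 1 was lowest of its group in both (1.78 and 13.8 CPM). CKO bleomycin replicate 2 had the lowest score of the study (0.954), yet its Itgax lay above every control bleomycin library. CKO bleomycin replicate 3 had the highest score of its group (7.69) but its lowest Itgax (461 CPM). The interstitial or monocyte-derived macrophage genes, such as C1qa and Apoe, gave scores of 3.43 ± 0.38 in control PBS and 3.96 ± 2.13 in control bleomycin. Their scores were 4.02 ± 2.08 in CKO PBS and 5.08 ± 0.76 in CKO bleomycin. Dendritic cell genes summed to at most 55.7 CPM in any library, with Xcr1 and Cd209a under 1 CPM in all. Of the 8 neutrophil genes, Ly6g and Ngp were also under 1 CPM in all libraries, while 4 passed the filter. The sum of the 8 reached 141.5 CPM in control PBS, 118 CPM in control bleomycin and 153 CPM in CKO bleomycin libraries. The neutrophil sum of 9705 CPM in CKO PBS replicate 1 was nearly all Mmp8 (9611 CPM), in the library with the highest Itgam. T cell genes summed to at most 61.1 CPM, B cell genes to at most 38.7 CPM and NK cell genes to at most 7.79 CPM.

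Genes among the 3 with the highest Pearson r of log2 CPM over the 17 libraries are given for each member, as a description. Those of Itgb2 were Myo1f, Nfam1 and Btk, each at 0.971. Those of Itgam were Ccr1 (0.931), Gk (0.906) and Batf2 (0.902), and Ccr1, a chemokine receptor of myeloid cells, reached 801 CPM in CKO PBS replicate 1 and 508 CPM in replicate 5, as Itgam was highest there. Itgal was closest to Nlrc4 (0.948) and Ms4a8a (0.940), and Itga4 to Mertk (0.960), Naip6 (0.957) and Tlr8 (0.953). Itgb7 was closest to Mx1 (0.954), Ms4a4c (0.936) and Daxx (0.915). Mx1, an interferon-induced GTPase, measured 364 CPM in CKO PBS replicate 5 and at most 20.04 CPM elsewhere, and Ms4a4c measured 484 CPM there, in the culture with the highest Itgb7 and C1qa (956 CPM). Outside that culture Mx1 was again highest where Itgb7 was, in CKO bleomycin replicate 1, and r without it was not computed.

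Itgax was closest to its neighbour Itgad (r = 0.999), the gene of CD11d, followed by Cyfip2 (0.972) and Slc9a4 (0.966). Itgad (chr7:128154376-128223816, plus strand) starts 3718 bases beyond the end of Itgax, and its CPM was 2.05% to 2.54% of that of Itgax in all 17 libraries (median 2.29%). Whether the Itgad counts come from its own transcripts or from those of Itgax cannot be told here. The cause of the nearly constant share was not tested. The Itgad log2 fold change of 1.93 ± 0.82 in CKO after bleomycin is therefore not counted apart.

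Among the partners, Itgb1 (chr8:128685654-128733200), the beta-1 chain of most matrix-binding integrins, took the opposite direction to the members. It measured 1071, 930.0, 1083 and 1150.3 CPM in control bleomycin and 584, 606, 402 and 484 CPM in CKO bleomycin libraries, without overlap (log2 fold change -1.003 ± 0.31, edgeR adjusted p = 0.197), where 13.8% of all genes were lower without overlap. Itgae, the other alpha chain that pairs with Itgb7, reached at most 0.614 CPM and was at 0 counts in all control bleomycin libraries.

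Of the 10 ligand genes 7 were kept. In CKO against control after bleomycin 4 had higher and 3 lower values, and 2 of these, Fn1 and Jam3, were lower without overlap, as were 13.8% of all genes. There was 1 unadjusted p under 0.05, where 20.2% of all genes had one. It was that of C3 (2.26 ± 0.72, edgeR adjusted p = 0.207), the complement component whose cleavage product iC3b binds Mac-1. C3 overlapped, at 87.0, 183, 598 and 488 CPM in CKO bleomycin and 153, 45.7, 51.6 and 41.2 CPM in control bleomycin. Icam1, the ligand of LFA-1 and Mac-1, was at 0.61 ± 0.42 (adjusted p = 0.384). Vcam1, the ligand of alpha-4 beta-1, measured 2.36, 8.34, 46.9 and 6.91 CPM in control PBS and 80.8, 102, 108 and 134 CPM in control bleomycin, without overlap (log2 fold change 2.66 ± 1.14, edgeR adjusted p = 0.332), where 6.76% of genes were higher without overlap. In CKO bleomycin it read 25.2, 107, 5.45 and 6.41 CPM (-1.53 ± 1.09, adjusted p = 0.403), the second of these in a library whose sex genes went against its label. Madcam1, Icam2 and Jam2 did not pass the filter, and Madcam1 was at most 0.173 CPM.

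The intracellular genes that activate leukocyte integrins or signal from them were counted in the same way. Of 19 kept, 17 had higher and 2 lower values in CKO after bleomycin, the median log2 fold change being 0.84, with 4 unadjusted p under 0.05 and 0 adjusted calls. That count of 4 in 19 is close to the 20.2% of all genes tested. They included the kinase Syk (1.52 ± 0.64), the exchange factor Vav1 (1.297 ± 0.61) and the adaptor chain Fcer1g (1.35 ± 0.61), and these did not overlap between groups. Fermt3, the kindlin of blood cells that switches beta-2 integrins on, was at 1.01 ± 0.55 without overlap (edgeR adjusted p = 0.286), and Fermt2, the kindlin of fibroblasts and epithelium, was at -2.16 ± 1.02 on the other side of 0 (adjusted p = 0.248). Fcer1g and Tyrobp are also among the macrophage genes. After bleomycin in control mice 16 of the 19 had lower values (median -0.66), with 4 unadjusted p under 0.05, Cytip, Cyth1 and Rap1a among them. Over all genes, 7.98% were lower at that unadjusted p.

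Of the 5 myeloid transcription factors kept, 4 had higher values in CKO after bleomycin and 3 of them did not overlap: Spi1, the gene of PU.1 (1.43 ± 0.66), Cebpa (1.40 ± 0.50) and Irf8 (1.35 ± 0.58), with edgeR adjusted p from 0.212 to 0.243. Over all genes, 8.42% were higher without overlap. Spi1 measured 135, 105, 121.03 and 194 CPM in CKO bleomycin and 6.29, 77.1, 68.9 and 57.2 CPM in control bleomycin. Runx1, which fibroblasts also express, was at -0.05 ± 0.27. After bleomycin in control mice all 5 had lower values (median -1.02), and Cebpa alone had an unadjusted p under 0.05 (-1.09 ± 0.50, edgeR adjusted p = 0.346).

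**Figure D5:**
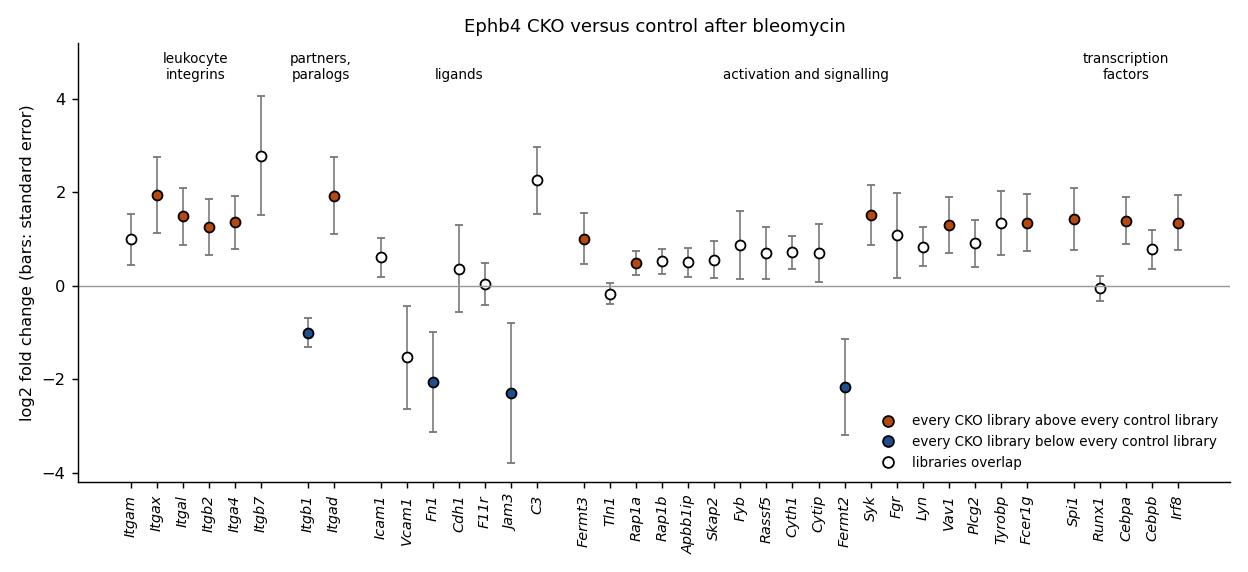
Log2 fold changes of CKO against control after bleomycin with standard errors (bars) for the integrins, their partners, ligands, activation genes (18 of the 19 kept) and myeloid transcription factors. Filled points mark genes whose 4 CKO libraries lie wholly above (orange) or below (blue) the 4 control libraries; Itgb1, Fn1, Jam3 and Fermt2 are the filled points below 0.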

How the data were processed

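Total RNA-Seq counts were measured in 17 cultures. The authors trimmed reads with Cutadapt, aligned them in strand-specific mode to GRCm38 with HISAT2 (2.1.0), and deposited whole-number counts per gene that StringTie's script derived from coverage, so counts of overlapping or neighbouring genes depend on how coverage was divided. The counts were not normalised before deposit. Groups came from the sample labels. Genes with over 10 CPM in at least 2 libraries (10481 of 55421) were tested with edgeR 4.0.16 (R 4.3.3), quasi-likelihood, TMM, 1 mean per group over all 17 libraries, with Benjamini-Hochberg adjustment over all genes kept and a threshold of 0.05; levels relative to the macrophage score were tested by exact permutation (2-sided; scipy 1.17.1). Each standard error was derived from the F statistic of that coefficient. The study's methods include a batch number, but the batch of each library is not given in the sources used here, so no batch term was fitted. The procedure was tested on simulated data. Alternatives were DESeq2 1.42.0, limma voom 3.58.1, other filters, covariates and samples. The fits within 1 number series, and the relative levels without the libraries whose sex genes go against their labels, were chosen after seeing the data. Positions are from GENCODE M21 and promoter sequences from RefSeq (GRCm38.p6, entries matched by symbol for 4 of 6 members). The genes, marker lists and comparisons were chosen with earlier results of these data known. Named were all members, partners and paralogs, Icam1, Vcam1, Fermt3 and Spi1, listed genes with an unadjusted p under 0.05 and no overlap in a bleomycin comparison, and the 3 genes most alike each member. C3, Fn1, Jam3, Fermt2, Runx1, Mx1 levels, Mmp8 and other markers were named after their values were seen. Some listed genes are not reported here by name; they remain in the counts, medians and scores of their lists.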

Additional observations from a re-analysis of the deposited data

Results flagged for a closer look

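In groups of 4 or 5 libraries, 56 groups of values were looked at for a single library far from the rest. In all, 8 values stood apart, where chance gives about 1 in 20 groups. Several of the 8 came from the same library, control bleomycin replicate 1, so they are not independent. In control bleomycin, replicate 1 was far below the other 3 in log2 CPM of Itgax (3.79), Itgb2 (6.23) and Itga4 (1.53) and in the macrophage score (4.07). In the same library Itgam relative to the macrophage score was far above the others, at 1.96. Relative to that score, Itgam was also far above the other control PBS libraries in replicate 3 (1.03), Itgb2 was far below the other CKO PBS libraries in replicate 5 (0.689), and Itga4 was far below the other control bleomycin libraries in replicate 2 (-3.39), a library whose sex genes went against its label.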

How the results depend on the processing

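The count of leukocyte integrin genes with an adjusted p under 0.05 was 0 in all comparisons under every alternative run, DESeq2 included. Genes called in the whole table were 0 with edgeR, and DESeq2 called 166 for bleomycin against PBS in control, 399 for CKO against control after bleomycin, and 1 in each of the other 2 simple comparisons. Leaving out single libraries gave 0 to 2 calls in control and 0 to 1 after bleomycin, and the fit within number series 12 gave 3 for bleomycin against PBS in CKO. The 6 log2 fold changes for CKO against control after bleomycin kept their direction in every alternative that could be fitted; Itgb7 could not be fitted where it failed the filter, as without CKO PBS replicate 5 or CKO bleomycin replicate 1. With Ptprc in place of the score, Itgb7 had r = 0.493 (permutation p adjusted = 0.0619).

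Directions turned in these cases, none of them past a threshold, and the cause was not tested. With the fibroblast score as a covariate: Itgb2 0.165 for bleomycin in control, and interactions of -0.211 for Itgal and -0.0097 for Itgb2. With the macrophage score as a covariate: Itga4 -0.168 in CKO after PBS, Itgax -0.334 and Itgb2 -0.138 for bleomycin in CKO, and Itgb7 -0.0811 in the interaction. With the number series as a covariate: Itgb7 0.309 for bleomycin in control, 0.133 for bleomycin in CKO and -0.176 in the interaction, and Itga4 0.0535 for bleomycin in CKO. Within series 11: Itgax -0.0484 in CKO after PBS, and Itgal 0.077 and Itgb2 -0.0617 for bleomycin in CKO. Within series 12: Itga4 -0.447 in CKO after PBS, and Itgax -0.209 and Itga4 0.57 for bleomycin in CKO. With limma voom: Itga4 0.0503 and Itgb7 0.171 for bleomycin in CKO, and Itgam 0.086 in the interaction. Without the 3 libraries whose sex genes go against the labels: Itga4 0.00279 for bleomycin in CKO and Itgam 0.151 in the interaction. Leaving out single libraries, the ranges that crossed 0 were -0.196 to 0.865 (Itgax, CKO after PBS), -0.356 to 0.40 (Itgax), -0.127 to 0.20 (Itgb2) and -0.283 to 0.095 (Itga4) for bleomycin in CKO, and -0.669 to 0.0268 (Itgam) and -0.0759 to 0.695 (Itgb7) for the interaction.

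For levels relative to the macrophage score, a 5-gene score gave 0.0729 for Itgb7 for bleomycin in control, -0.0739 for Itgb2 in CKO after bleomycin and 0.0124 for Itgax for bleomycin in CKO. Ptprc gave 0.332 for Itgb7 for bleomycin in control, -0.00575 (Itgal), -0.153 (Itgb2) and -0.00611 (Itga4) in CKO after bleomycin, and 0.223 (Itgax), 0.181 (Itgb2) and 0.181 (Itga4) for bleomycin in CKO. Without the 3 libraries whose sex genes go against the labels the values were -0.00819 (Itgb2, CKO after bleomycin), 0.0731 (Itgax) and 0.124 (Itga4) for bleomycin in CKO. Leaving out single libraries gave -0.398 to 0.68 (Itgam), -0.244 to 0.238 (Itgb2) and -0.848 to 0.185 (Itgb7) for bleomycin in control, -0.897 to 0.0603 (Itgam) and -0.078 to 0.186 (Itgb2) in CKO after bleomycin, -0.44 to 0.411 (Itgax), -0.285 to 0.69 (Itgal), -0.0944 to 0.502 (Itgb2) and -0.375 to 0.891 (Itgb7) in CKO after PBS, and -0.616 to 0.235 (Itgax), -0.397 to 0.0544 (Itgb2), -0.323 to 0.13 (Itga4) and -0.353 to 0.914 (Itgb7) for bleomycin in CKO. With the longest transcript as the length, Itga4 to Itgb1 in CKO bleomycin was 0.0499 in place of 0.0373. Gene counts do not allow a run without StringTie's isoform weighting, which was not run. No paired analysis was possible because the replicate numbers were given in accession order and mark no shared animal, litter or day. Depth did not limit the members, apart from Itgb7, which had as few as 32 counts in a library.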
